A study of Galdieria sulphuraria with 9 samples.

Results

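Transcripts of 18 genes stood apart in the red alga *Galdieria sulphuraria* when it was acclimated to 42 °C. These genes were chosen from the measurements themselves. Read counts were scaled to CPM, counts that add up to 1000000 over the genes of a library, and log2(CPM + 1) was averaged over the libraries of each sampling. A member had a mean of at least 10 CPM in at least 1 sampling, a mean at 42 °C that lay at least 0.8 above or at least 0.8 below the mean of each other sampling on this log2 scale, and other means that spanned less than 0.7. Of 6538 genes, 5823 met the CPM minimum, 2331 of these also met the limit on the span, and 18 met the whole rule. Among the 18 members, 11 were raised and 7 were lowered. Because the rule used these levels, the differences of H-42 from the other samplings are given as a description, with no test.

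The cultures were wild-type strain 074W, grown photoautotrophically in 2xGS medium, shaken under continuous light. The first sampling, H-42, followed 2 weeks at 42 °C. The same cultures were then held for 48 h at 28 °C (C-28.1), for 48 h at 46 °C (H-46) and again for 48 h at 28 °C (C-28.2), and RNA was taken at the end of each step. There were 2 libraries of H-42 (cultures B and C), 3 of C-28.1 (A, B and C), 2 of H-46 (A and C) and 2 of C-28.2 (A and C). The letters are those of the replicates, and each letter is read here as the same culture in every sampling. No library of culture A at 42 °C was analysed here, so culture A entered 3 of the 4 samplings. H-42 was the only sampling after 2 weeks at one temperature and also the earliest, so temperature, time at that temperature and the age of the cultures cannot be told apart.

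*G. sulphuraria* is a unicellular alga of hot, acidic springs and belongs to the Cyanidiophytina, the lineage of red algae that lives in such places. It can grow by photosynthesis or on organic carbon. Temperatures in the forties lie inside the range in which it grows well, whereas 28 °C is cold for it. Shifts of temperature are generally known to change the lipids of membranes, the folding of proteins and the rate of growth in microalgae. Values from whole cultures give the share of each transcript among all counted reads and do not show how much RNA a single cell held.

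Libraries held 4389066 to 8989387 counts. The deepest library was H-42 B (8989387 counts), and H-42 C held 8309544 counts. The raised members took 2.48% and 2.20% of the counts in the H-42 libraries, against 0.782 to 1.46% in the other 7 libraries. The lowered members took 0.0512% and 0.0487% in the H-42 libraries, against 0.0724 to 0.168% in the others. With each library thinned to the smallest total, 10 of the 11 raised and 6 of the 7 lowered members still met the rule. Libraries A and C stood apart from each other in H-46 and in C-28.2, with a chi-square per gene of 72.8 and 64.4, against 12.4 to 24.4 for the other pairs within a sampling. Membership without each library is given with the last results.

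The raised members with the highest levels per kilobase of gene were Gs64980, Gs64970, Gs57520 and Gs11610, for none of which a product name was at hand. Gs11610 had 5298 (B) and 4484 CPM (C) in H-42. It had 1899 (A), 1377 (B) and 1612 CPM (C) in C-28.1, 2253 (A) and 2916 CPM (C) in H-46, and 1281 (A) and 2125 CPM (C) in C-28.2. Both H-42 libraries lay above all 7 others, and the difference from the mean of the other samplings was 1.36 on the log2(CPM + 1) scale, or 2.57-fold.

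Gs57520 had 5364 (B) and 3880 CPM (C) in H-42. Its levels were 2696 (A), 2174 (B) and 2243 CPM (C) in C-28.1, 2656 (A) and 2291 CPM (C) in H-46, and 1500.2 (A) and 1803 CPM (C) in C-28.2. Its H-42 libraries did not overlap the others, its lowest level was in C-28.2 A, and it lay 2.15-fold above the other samplings. It was the single raised member that still met the rule with culture A left out.

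Gs64970 and Gs64980 are next to each other in the RefSeq gene order and do not overlap. Gs64980 had 5429 (B) and 4119 CPM (C) in H-42, 2812 (A), 2062 (B) and 2522 CPM (C) in C-28.1, 2379 (A) and 2629 CPM (C) in H-46, and 1733 (A) and 3089 CPM (C) in C-28.2. Gs64970 had 4700 (B) and 4534 CPM (C) in H-42, 1789 (A), 1328.5 (B) and 1556 CPM (C) in C-28.1, 1404 (A) and 3530 CPM (C) in H-46, and 1637 (A) and 3673 CPM (C) in C-28.2. In both genes the H-42 libraries lay above all others, 1.95-fold (Gs64980) and 2.27-fold (Gs64970) over the mean of the other samplings. Gs64970 was high in culture C at H-46 and at C-28.2, close to its H-42 level, and low in culture A of both samplings. Per kilobase of gene, Gs64980 (581 bases) averaged 8217 CPM in H-42 and Gs64970 (665 bases) 6942 CPM, the highest values of the 17 members with a known length. For the splicing analysis, reads with more than one position and broken pairs were dropped; whether this holds for the counts is not given in the sources used here, so the levels of genes with near-identical copies are uncertain.

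Gs47900 and Gs39240 followed with fewer reads. Gs47900 had 1350 (B) and 1778 CPM (C) in H-42, 499 (A), 485 (B) and 519 CPM (C) in C-28.1, 493 (A) and 1217 CPM (C) in H-46, and 587 (A) and 896 CPM (C) in C-28.2. Gs39240 had 1021 (B) and 1356 CPM (C) in H-42, 601 (A), 479 (B) and 505 CPM (C) in C-28.1, 455 (A) and 733 CPM (C) in H-46, and 546 (A) and 701 CPM (C) in C-28.2. Both were above all other libraries in both H-42 libraries, 2.36-fold (Gs47900) and 2.05-fold (Gs39240) over the other samplings, but Gs47900 in H-46 C came near to H-42 B. Gs39240 varied less among the other samplings, whose means spanned 0.23 against 0.63 in Gs47900.

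Gs29050, Gs12060 and Gs27150 ran from 106 to 790 CPM. Gs29050 had 640 (B) and 790 CPM (C) in H-42, 313 (A), 367 (B) and 421 CPM (C) in C-28.1, 211 (A) and 581 CPM (C) in H-46, and 189 (A) and 355 CPM (C) in C-28.2. In each of the 3 other samplings its lowest library was that of culture A. Gs12060 had 512 (B) and 479.8 CPM (C) in H-42, 197 (A), 223 (B) and 299 CPM (C) in C-28.1, 207 (A) and 335 CPM (C) in H-46, and 218 (A) and 369 CPM (C) in C-28.2. It showed the same order, with culture A lowest in each of these samplings. Gs27150 had 357 (B) and 375 CPM (C) in H-42, 222 (A), 118 (B) and 144 CPM (C) in C-28.1, 166 (A) and 257 CPM (C) in H-46, and 106 (A) and 159.9 CPM (C) in C-28.2. The H-42 libraries of all 3 genes lay above their other libraries, by 2.21-fold (Gs29050), 1.90-fold (Gs12060) and 2.26-fold (Gs27150) over the mean of the other samplings.

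Gs43230 was the raised member farthest from the other samplings and also the one with the lowest level per kilobase. It had 11.8 (B) and 18.7 CPM (C) in H-42, 3.30 (A), 3.65 (B) and 2.59 CPM (C) in C-28.1, 2.28 (A) and 7.64 CPM (C) in H-46, and 2.85 (A) and 4.08 CPM (C) in C-28.2. The difference was 1.78 on the log2(CPM + 1) scale, and it rests on 10 to 155 counts per library. The H-42 libraries were apart from all others. In the RefSeq gene order Gs43230 overlaps Gs43250, a gene that averaged 79.1 CPM in H-42 and lay −0.20 from the other samplings; the library kit does not mark strand, so reads from the stretch they share cannot be assigned to one of them with certainty.

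Gs44430 was the one raised member whose libraries overlapped. It had 131 (B) and 175 CPM (C) in H-42, 43.0 (A), 105 (B) and 120 CPM (C) in C-28.1, 28.5 (A) and 152 CPM (C) in H-46, and 24.5 (A) and 180 CPM (C) in C-28.2. Culture C was at least as high in C-28.2 as in H-42, and the low means of the other samplings came from culture A. Without culture A its H-42 mean was 0.24 below the nearest other mean, so it was then not raised.

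**Figure D1:**
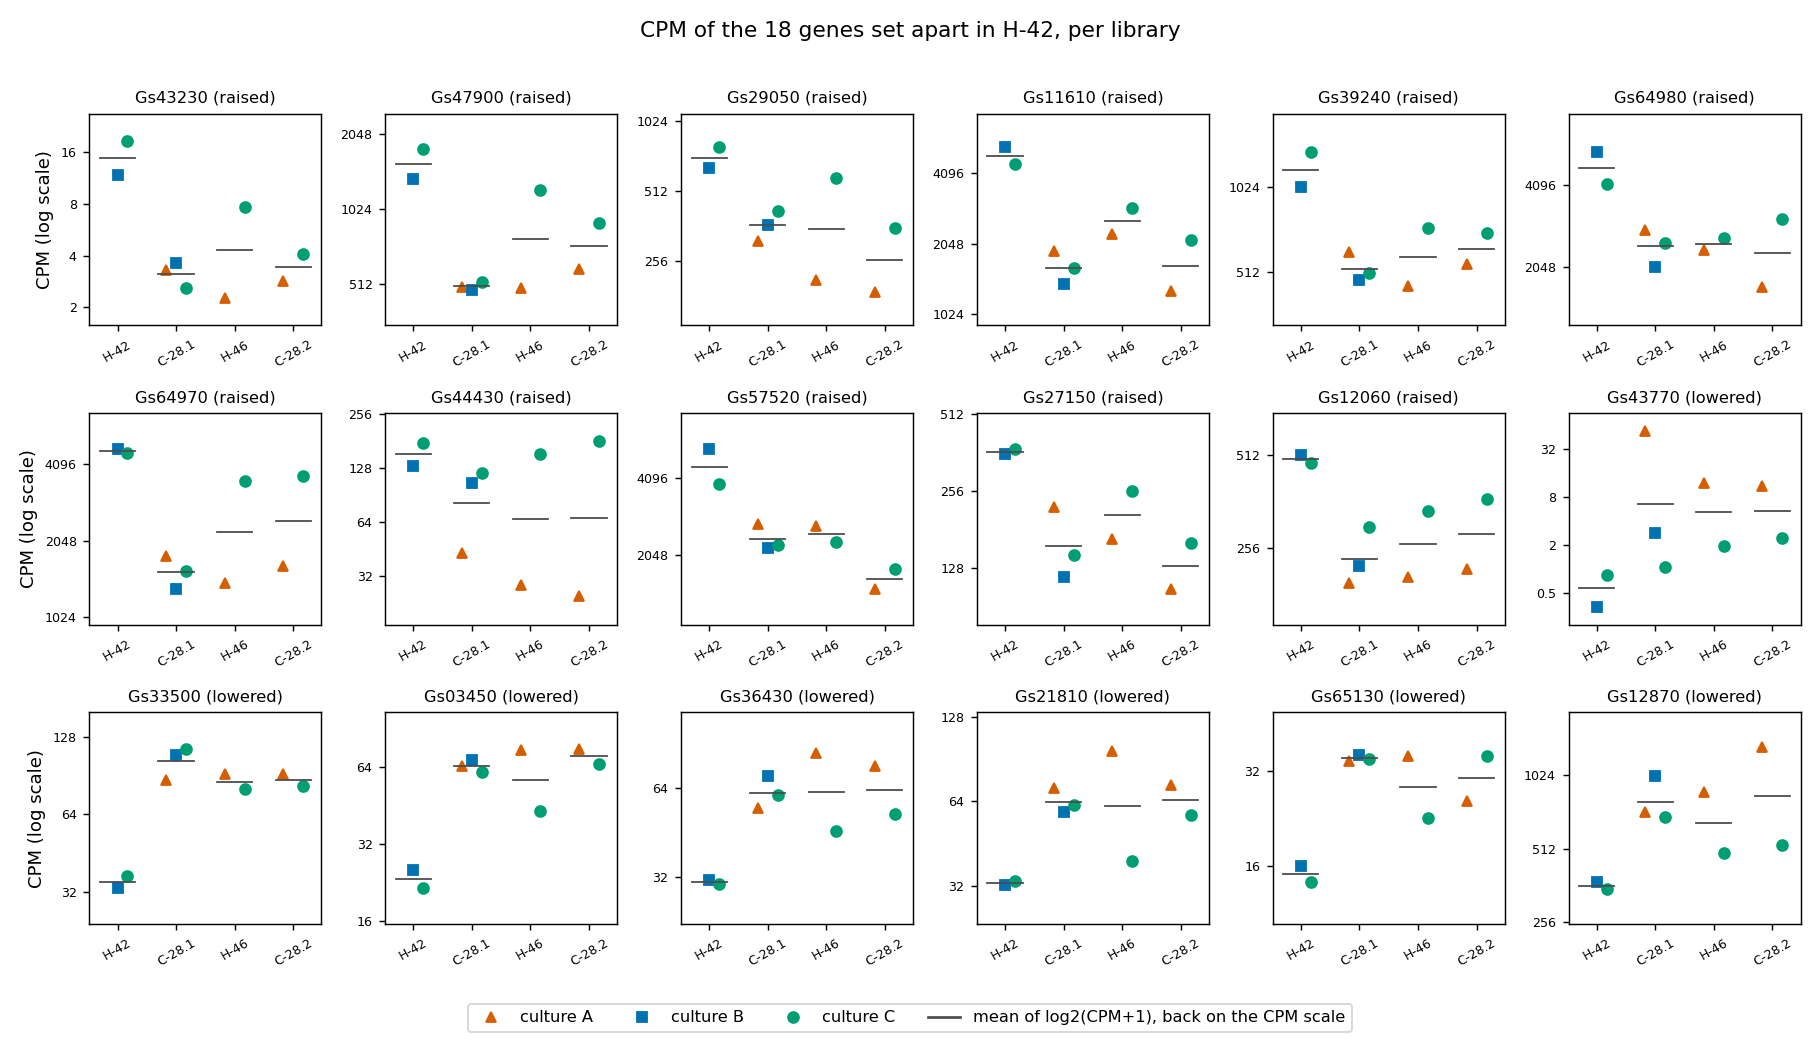
CPM of each member in the 9 libraries, on a log scale that differs between panels, with samplings from left to right in the order they were taken. Triangles, squares and circles stand for cultures A, B and C, and the bars for the sampling means of log2(CPM + 1) turned back to CPM. In 10 of the 11 raised members both H-42 libraries lie above all others (3.28% of all 5823 genes), and in 7 of the 7 lowered members both lie below (7.2%). The rule chose the members from these levels, so both counts follow from it.

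Among the lowered members, Gs03450 was the only one of the 18 with a product name. It is named as a member of the membrane bound O-acyl transferase (MBOAT) family, enzymes that in other eukaryotes attach fatty acids to lipids or proteins within membranes. Gs03450 had 25.4 (B) and 21.5 CPM (C) in H-42, 64.3 (A), 67.7 (B) and 60.8 CPM (C) in C-28.1, 74.5 (A) and 43.1 CPM (C) in H-46, and 75.3 (A) and 65.4 CPM (C) in C-28.2. Both H-42 libraries lay below all others, 2.64-fold under the mean of the other samplings, and the closest other library was H-46 C.

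Gs33500 kept the cleanest separation of the lowered members. It had 33.2 (B) and 36.7 CPM (C) in H-42, 87.0 (A), 109 (B) and 115 CPM (C) in C-28.1, 91.4 (A) and 80.3 CPM (C) in H-46, and 91.4 (A) and 82.6 CPM (C) in C-28.2. The 7 other libraries lay between 80.3 and 115 CPM, and H-42 was 2.58-fold lower. Gs33500 and Gs03450 were the only members that met the rule whichever of the 9 libraries was left out, and the only lowered members that met it without culture A.

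Gs36430, Gs21810 and Gs65130 had 22.7 to 96.6 CPM in the libraries outside H-42. Gs36430 had 31.3 (B) and 30.4 CPM (C) in H-42, 54.9 (A), 70.3 (B) and 61.0 CPM (C) in C-28.1, 84.5 (A) and 46.1 CPM (C) in H-46, and 76.2 (A) and 52.3 CPM (C) in C-28.2. Its means in the other samplings were almost level, with a span of 0.03 on the log2 scale, although cultures A and C differed at H-46 and at C-28.2. Gs21810 had 32.1 (B) and 33.3 CPM (C) in H-42, 71.2 (A), 58.5 (B) and 62.4 CPM (C) in C-28.1, 96.6 (A) and 39.3 CPM (C) in H-46, and 73.4 (A) and 57.3 CPM (C) in C-28.2. In H-46 C it was close to its H-42 level. Gs65130 had 15.9 (B) and 14.2 CPM (C) in H-42, 34.4 (A), 36.1 (B) and 34.8 CPM (C) in C-28.1, 35.8 (A) and 22.7 CPM (C) in H-46, and 25.7 (A) and 35.8 CPM (C) in C-28.2. The H-42 levels of these genes were 1.99-fold (Gs36430), 1.91-fold (Gs21810) and 2.01-fold (Gs65130) lower than the other samplings, with no overlap of libraries.

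Gs12870 had the highest level per kilobase of the lowered members with a known length. It had 373 (B) and 349.8 CPM (C) in H-42, 719.5 (A), 1012 (B) and 691 CPM (C) in C-28.1, 870.3 (A) and 491 CPM (C) in H-46, and 1328 (A) and 531 CPM (C) in C-28.2. Its H-42 level was 2.10-fold lower, and the lowest other libraries were those of culture C at H-46 and at C-28.2.

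Gs43770 had few reads outside culture A. It had 3 and 7 counts in H-42 B and C, or 0.334 and 0.842 CPM. In C-28.1 it had 54.4 CPM in culture A against 2.85 and 1.06 CPM in cultures B and C, in H-46 11.8 CPM in culture A and 1.91 CPM in culture C, and in C-28.2 11.0 CPM in culture A and 2.41 CPM in culture C. Culture A stood far above the rest in every sampling where it was measured. In cultures B and C the gene had at most 25 counts, and without culture A it fell under the CPM minimum. No fold change is given for it, and its number matched no RefSeq locus tag.

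The distance from H-42 to the nearest other mean ran between 0.80 and 1.57 for the raised and between 0.85 and 1.96 for the lowered members. Just inside the limit were Gs27150 (0.82) and Gs12060 (0.80) on the raised side, and Gs65130 (0.88) and Gs12870 (0.85) on the lowered side. Just outside were Gs15240 (0.78) and Gs62040 (0.76) among genes higher in H-42, and Gs07560 (0.79) and Gs17600 (0.77) among genes lower in H-42. Without the limit on the span, 24 genes lay 0.8 or more above and 24 lay 0.8 or more below every other sampling. The same rule with another sampling in the place of H-42 found 203 genes for C-28.1 (74 raised, 129 lowered), 32 for H-46 (21 raised, 11 lowered) and 132 for C-28.2 (79 raised, 53 lowered). Libraries were not left out for these other samplings.

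H-46 was the nearest other sampling for 6 of the 11 raised and 6 of the 7 lowered members. For raised members the nearest was C-28.2 in 3 and C-28.1 in 2, and for lowered members C-28.1 in 1 (Gs36430). Over all 5823 genes, both H-42 libraries were above the 7 others in 3.28% and below them in 7.2%. The members' counts of 10 of 11 and 7 of 7 follow from the rule and are printed only beside these shares. The H-42 replicates themselves differed by a median of 0.23 in the members, and by at most 0.62 (Gs43230), against a median of 0.15 over all genes.

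A fit across 6264 genes with edgeR's quasi-likelihood test called 550 genes higher in H-42 than the mean of the other samplings (8.78%) and 613 lower (9.79%) at a Benjamini-Hochberg adjusted p below 0.05. Of the members, 8 of 11 raised and 6 of 7 lowered were among these calls, and Gs29050, Gs64970, Gs44430 and Gs43770 were not. With culture as a block, 13 members were called among 1080 of 6264 genes, with Gs29050 gained and Gs64980 and Gs21810 lost. The 14 members called with all libraries became 11 without C-28.1 B, among 717 of 6260 genes called. Fewer were called without H-42 B or H-42 C, which leaves 1 library in H-42. Against C-28.1 alone, 9 of 11 raised (20.7% of all genes higher in H-42) and 7 of 7 lowered members (21.2% lower) were called, 16 in all. These became 10 without C-28.1 B, among 1827 of 6260 genes called, and fewer still without H-42 B or H-42 C. Against C-28.2 alone, 6 of 11 raised (13.2% higher) and 6 of 7 lowered members (16.3% lower) were called, 12 in all. These became 9 without C-28.1 B, among 1480 of 6260 genes called. Fewer were called without H-42 B, H-42 C or C-28.2 A, each of which leaves 1 library in its sampling. Against H-46, 16 genes were called in either direction (0.255%), with Gs33500 the 1 member among them. That call was lost with culture as a block (edgeR, 0 members, 13 of 6264 genes called, 452 at an unadjusted p below 0.05). DESeq2 called 4 members among 72 of 6264 genes. The call was also lost without C-28.1 B (edgeR, 0 members, 4 of 6260 genes called, 413 at an unadjusted p below 0.05). Without H-46 C, which leaves 1 library in H-46, more genes and more members were called. All of these contrasts share the H-42 libraries that chose the members, and nothing is read from the counts.

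The members were then followed within single cultures. In culture B, which has libraries of H-42 and C-28.1, 10 of 11 raised members were 0.8 or more higher in H-42 (18% of all genes) and 7 of 7 lowered members 0.8 or more lower (15.3%). The exception was Gs44430, at 0.32. In culture C, which has all 4 samplings, 10 of 11 raised members were higher in H-42 than in each other sampling (14.8% of all genes) and 7 of 7 lowered members were lower (16.2%). The lowered counts include Gs43770, which had 3 counts in H-42 B against 25 in C-28.1 B. It had 7 counts in both H-42 C and C-28.1 C, so its lower CPM in H-42 C than in C-28.1 C came from the library totals alone. A distance of 0.8 in culture C from every other sampling was reached by 2 of 11 raised members (0.206%), Gs43230 and Gs39240, and by 2 of 7 lowered members (0.223%), Gs33500 and Gs03450. These libraries also entered the rule.

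To read values that a choice had not used, the rule was applied to the 4 libraries of culture C alone and the result was followed in culture B. The choice in culture C gave Gs39240 on the raised side and Gs33500 and Gs03450 on the lowered side, all of them members. In culture B, Gs39240 was 1.09 higher in H-42 than in C-28.1. Gs33500 was 1.68 lower and Gs03450 1.38 lower on the log2(CPM + 1) scale. All 3 repeated the direction at a distance over 0.8. Of the 5789 genes passing the minimum in culture C, 17.9% reached this upwards and 15.3% downwards. The 3 genes were chosen in culture C partly on this same difference of H-42 from C-28.1, and the 5789 genes were not. These shares are therefore not a like base for the 3 genes, and the repeat is given as a description. Culture B has no library of H-46 or C-28.2 here, so the repeat covers H-42 against C-28.1 only. It cannot show that these 3 genes stood apart in H-42 alone, and the culture B libraries also entered the rule that chose the members.

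**Figure D2:**
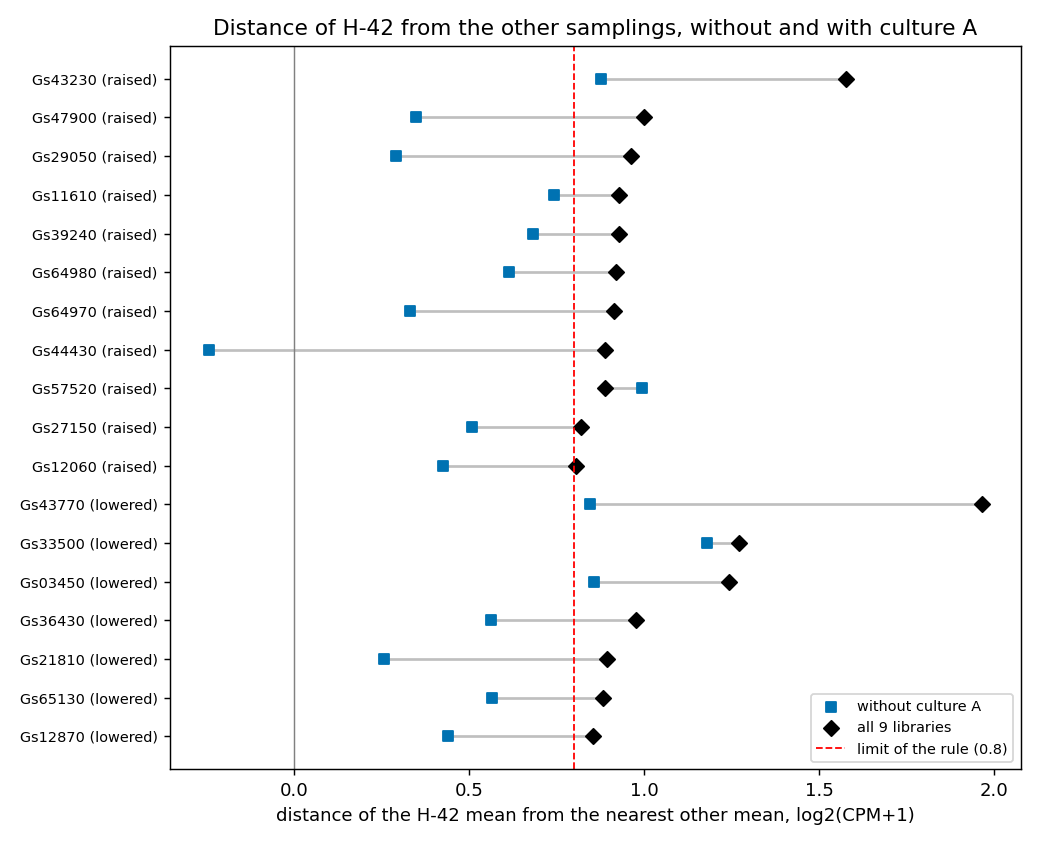
Distance of the H-42 mean from the nearest other sampling mean for each member, on the log2(CPM + 1) scale and counted positive in the direction of the member. Squares leave out culture A, diamonds use all 9 libraries, and the dashed line is the limit of 0.8. Without culture A, 1 raised (Gs57520) and 2 lowered members (Gs33500, Gs03450) still met the whole rule, and Gs44430 lay below 0.

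Leaving out culture A moved most members below the limit. The median distance of the raised members was 0.51 without culture A and 0.92 with it, and that of the lowered members 0.57 without and 0.98 with it. Of the 11 raised members, 10 kept a distance above 0 and 2 kept one of 0.8 or more, namely Gs57520 (0.99) and Gs43230 (0.88). Gs43230 no longer met the limit on the span, which was 1.08. Of the 7 lowered members, all 7 kept a distance above 0, and Gs33500 (1.18), Gs03450 (0.86) and Gs43770 (0.85) kept one of 0.8 or more. Gs05400 and Gs17590, which are not members, met the rule for lowered genes without culture A.

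In the other samplings the level in culture C was often the one closest to H-42. The highest library outside H-42 was from culture C in 10 of 11 raised members, 6 of them in H-46 C and 4 in C-28.2 C. The lowest library outside H-42 was from culture C in 7 of 7 lowered members, 6 of them in H-46 C. No share over all genes is at hand for these counts of highest and lowest libraries, so they are not read as particular to the members. Culture A minus culture C had a median of 0.20 in C-28.1, −0.70 in H-46 and −0.73 in C-28.2 over the raised members. Over the lowered members it was 0.06 in C-28.1, 0.82 in H-46 and 0.35 in C-28.2. Over all genes it was 0.02 in C-28.1, 0.19 in H-46 and 0.19 in C-28.2. Culture A was below culture C in 10 of 11 raised members in H-46 and in 11 of 11 in C-28.2, but in 4 of 11 in C-28.1. Over all genes culture A was below culture C in 39.4% in H-46, 37.1% in C-28.2 and 47.1% in C-28.1, and over the shortest 1939 genes in 68.4% in H-46, 64.3% in C-28.2 and 52.1% in C-28.1.

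A fit with sampling and culture as terms, made after the members' values in culture A had been seen, called 221 of 6264 genes between cultures A and C (3.53%). The 4 members among these were Gs44430, with a log2 difference of −2.32 (SE 0.25), Gs29050 with −1.01 (SE 0.21), Gs12060 with −0.73 (SE 0.17) and Gs43770 with 3.38 (SE 0.56). Culture A was thus called lower in 3 of 11 raised members (2.59% of all genes) and called higher in 1 of 7 lowered members (0.942%). Called or not, its estimate was lower in 10 of 11 raised members, against 2934 of 6264 genes. It was higher in 5 of 7 lowered members, against 3330 of 6264 genes. Since the same libraries set the means that chose the members, these calls are a description. They also depended on single libraries, with 0 genes called without C-28.2 A or without C-28.2 C (edgeR, 996 and 987 genes at an unadjusted p below 0.05). Without H-46 A, and likewise without H-46 C, 8 genes were called, 1 of them a member (Gs44430). Without C-28.1 A, 11 members were called among 1492 of 6271 genes.

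**Figure D3:**
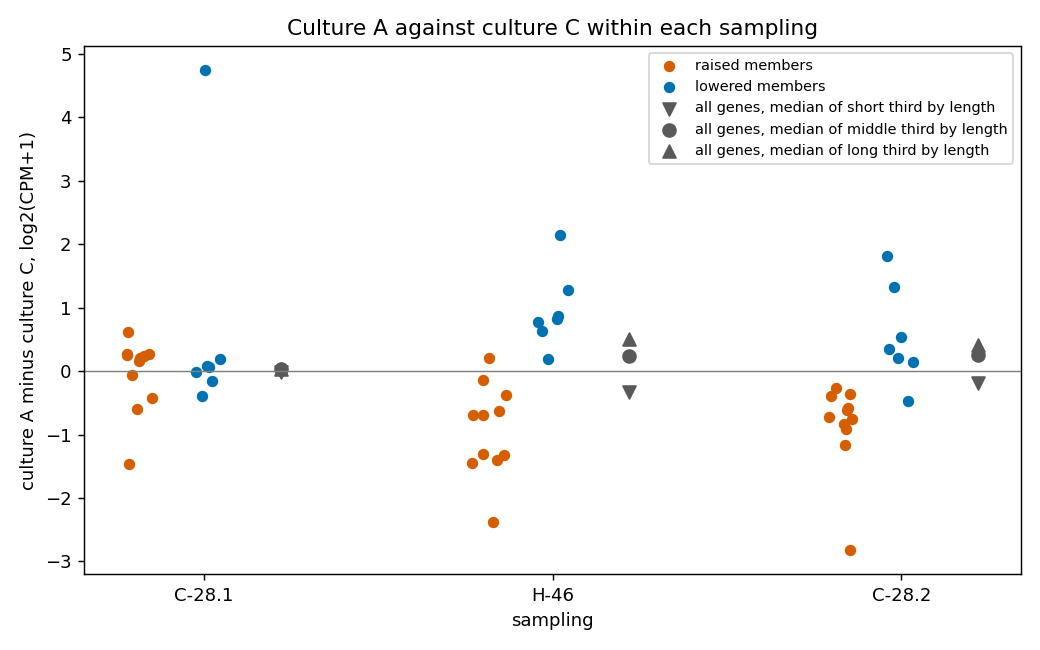
Culture A minus culture C within each sampling that holds both, on the log2(CPM + 1) scale. Orange points are the 11 raised and blue points the 7 lowered members, and grey symbols are medians of all genes over the CPM minimum in 3 classes by length. Raised members lie mostly below 0 in H-46 and C-28.2 (medians −0.70 and −0.73) and lowered members mostly above (0.82 and 0.35), while in C-28.1 both medians are near 0.

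Raised members came from short and lowered members from long genes. The 11 raised members had a median length of 665 bases (351 to 1555), and 10 of them were shorter than the median of 1418 bases over 5813 genes. The exception was Gs29050, with 1555 bases. The 6 lowered members with a length had a median of 1971 bases (1491 to 2615), and 6 of 6 were longer than that median. Gs03450 (2615), Gs12870 (2181) and Gs21810 (2121) were above the upper quartile of 1995 bases. RefSeq lengths run between the ends of the gene and include introns.

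Length moved with the samplings and the cultures over all genes as well. Across 5813 genes, the rank correlation of length with H-42 minus the other samplings was −0.22. It was −0.29 for H-42 minus C-28.1, −0.34 for H-42 minus H-46 and 0.02 for H-42 minus C-28.2. For culture A minus culture C it was 0.08 in C-28.1, 0.54 in H-46 and 0.47 in C-28.2. These values are across genes that share libraries, and genes are not independent replicates. In H-46 the shortest 1939 genes had a median A minus C of −0.33 and the longest 1938 a median of 0.51. There 10 of 11 raised members were lower in culture A, Gs57520 (991 bases) being higher by 0.21, and 7 of 7 lowered members were higher in it. Of the shortest 1939 genes 1326 were lower in culture A, and of the longest 1938 genes 1621 were higher. The part of length and of culture A in the result was not tested.

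**Figure D4:**
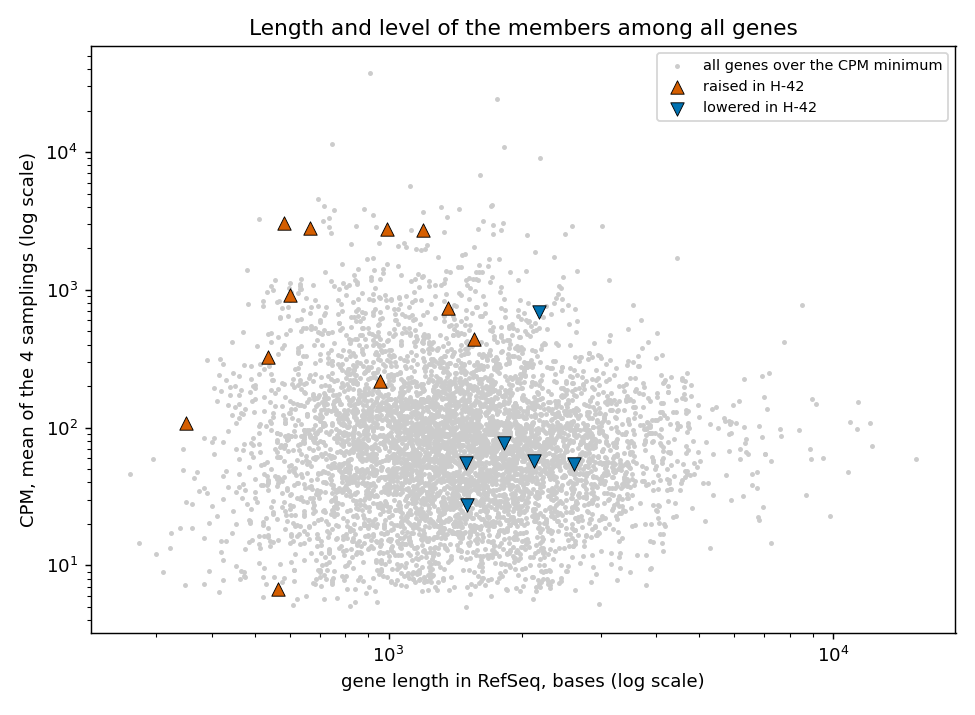
Length in RefSeq against CPM averaged over the 4 samplings, both on log scales, for all genes over the CPM minimum (grey), raised members (orange) and lowered members with a length (blue). Raised members sit at a median of 665 bases and lowered members at 1971 bases, against 1418 bases over all genes.

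The raised members also took many reads. In CPM, which are not scaled by length, and averaged over the 4 samplings, 9 of 11 lay above the upper quartile of all genes (141 CPM) and 10 of 11 above the median (71.4 CPM), Gs43230 being the exception. Of the 7 lowered members, 2 were above that median, Gs12870 and Gs33500. Per kilobase in H-42, the raised members ran from 26.9 CPM (Gs43230) to 8217 CPM (Gs64980) and the lowered members with a length from 8.97 CPM (Gs03450) to 166 CPM (Gs12870).

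The 17 members with a locus tag lay in 14 separate stretches of the gene order. Apart from Gs64970 and Gs64980, which are neighbours of each other, 0 of 19 neighbours of raised members were 0.8 or more higher in H-42, and 0 of 11 neighbours of lowered members were 0.8 or more lower. Over all genes the shares were 5.79% and 7.30%, so counts this small say little about neighbours.

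Product names were at hand for 1154 genes over the CPM minimum, and 1 member was among them. Gs03450 belongs to a list of 34 genes of lipid and sterol metabolism. The median of that list was −0.15 for H-42 minus the other samplings, with 2 genes 0.8 or more higher and 5 genes 0.8 or more lower, against a median of −0.04, 337 higher and 425 lower over all 5823 genes. The other lists, which ranged over chaperones, photosynthesis, carbon metabolism, transport, ribosomal proteins, splicing and signalling, held 0 members. Only 1 member had a product name and the lists were drawn from product names, so this 0 was nearly fixed in advance. It does not show that the unnamed members lie outside these functions. The names came from supplementary tables of alternatively spliced, differentially spliced and differentially expressed genes, so they cover a selected part of all genes.

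The other genes named as acyltransferases had other profiles, given here as means with no test. Gs08390, a diacylglycerol O-acyltransferase, the type of enzyme that makes storage fat, averaged 28.6 CPM in H-42, 39.9 CPM in C-28.1, 60.4 CPM in H-46 and 60.6 CPM in C-28.2. Gs51320, named as another membrane-bound O-acyl transferase, averaged 99.6 CPM in H-42, 51.8 CPM in C-28.1, 119 CPM in H-46 and 48.7 CPM in C-28.2. Gs51320 was thus high at both warm samplings, and Gs08390 was lowest in H-42. Gs03450 averaged 23.5 CPM in H-42, 64.3 CPM in C-28.1, 58.8 CPM in H-46 and 70.3 CPM in C-28.2, so only its H-42 mean stood away from the rest. Among the other acyltransferases, Gs47350, an acyltransferase of the kind that acts on UDP-N-acetylglucosamine, was −0.91 and Gs56890 0.04 from the other samplings. Gs47350 averaged 15.7 CPM in H-42, 31.1 CPM in C-28.1, 15.6 CPM in H-46 and 58.6 CPM in C-28.2, so it was as low in H-46 as in H-42. Gs56890 averaged 63.8 CPM in H-42, 40.1 CPM in C-28.1, 95.4 CPM in H-46 and 63.1 CPM in C-28.2.

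Membership depended on which libraries were used. Gs44430 met the rule in 3 and Gs43770 in 2 of the 9 cases in which 1 library was left out, and the other members with losses in 5 to 8. Without H-46 A, 3 genes were raised, 2 of them members, and 5 were lowered, 2 of them members. Without H-46 C, 37 genes were raised, 7 of them members, and 49 were lowered, 6 of them members. Without C-28.2 A, 5 raised and 3 lowered genes met the rule, all of them members. With library sizes scaled by the trimmed mean of M-values (TMM), which moved the median gene of H-42 minus H-46 to −0.02 on the log2 scale, against −0.15 with library totals, 19 genes were raised, among them the 11 members, and 5 lowered, 4 of them members.

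**Figure D5:**
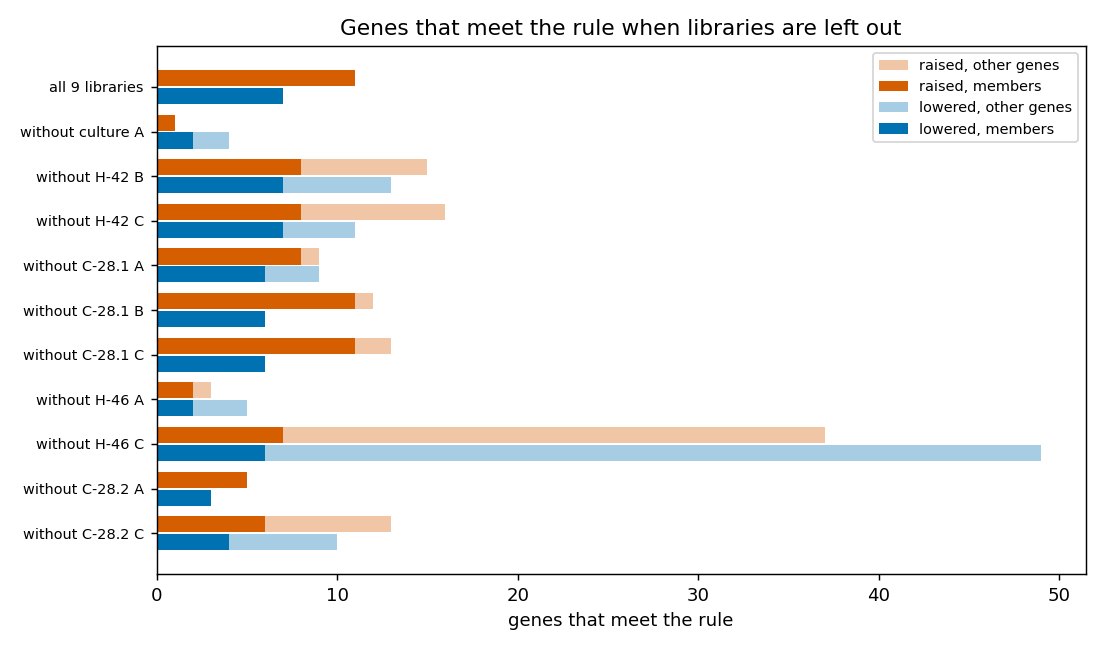
Number of genes that met the rule with all 9 libraries, without culture A and without each library in turn. Orange bars count raised and blue bars lowered genes, and the dark part of each bar counts members. Without H-46 C the counts reach 37 raised and 49 lowered, and without culture A they are 1 raised and 4 lowered.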

How the data were processed

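RNA-seq was carried out on 9 libraries with 3 replicate letters, read here as 3 batch cultures. The files deposited by the authors hold unnormalized counts of reads, whole numbers, for 6538 genes in each library, of which 79 had no count in any library. For splicing, the methods name STAR as the mapper and state that reads with several positions and broken pairs were dropped. Whether the same mapping gave the counts, and which annotation and strand setting were used, is not given in the sources used here. The kit, TruSeq v2, does not mark strand.

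CPM were computed from the deposited counts with the column total, and log2 values with a pseudocount of 1. Samplings and replicate letters were taken from the labels, and members by the rule in the opening. The labels do not state which culture a letter stands for. The members and lists were chosen with earlier results of these data known. Named genes were all members and the 2 genes just outside the limit on each side; Gs05400, Gs17590 and the neighbours and acyltransferases were named after their values were seen. The quasi-likelihood test of edgeR 4.0.16, run under R 4.3.3 with limma 3.58.1, was applied to the counts with TMM factors, on the genes kept by filterByExpr, with 1 term per sampling, and p-values were adjusted over all genes tested. DESeq2 1.42.0 served as an alternative. Depth was 4389066 to 8989387 counts per library, and the fewest counts behind a member in any library were 10 on the raised side (Gs43230) and 3 on the lowered side (Gs43770).

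Replicate letters recur across samplings, and the methods describe moving the same cultures between temperatures. The pairing of libraries by letter is read from this and is not given by the labels. Deviations from the sampling means correlated at 0.0581 to 0.602 (median 0.192) in 10 pairs from the same culture and at −0.602 to 0.395 (median −0.120) in 20 other pairs. With 2 libraries in a sampling their deviations mirror each other, so these pairs are not independent. No 2 libraries were identical. Product names came from the supplementary tables, which pair 1164 genes with a product. Lengths and gene order came from RefSeq assembly ASM34128v1, to which 6510 gene numbers matched and 28 did not. Because the build behind the counts is not named, no coordinates are given. Alternatives were other scalings, pseudocounts, limits and filters, culture as a replicate block, and leaving out libraries.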

Additional observations from a re-analysis of the deposited data

Results flagged for a closer look

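Among the 5 libraries taken at 28 °C, 1 library stood far from the other 4 in 4 of the 18 members. The measure was its gap to the nearest library divided by the whole range, with a limit of 0.71. Chance alone puts about 5% of groups of samples from one condition past this limit, but these libraries come from 2 samplings and C-28.2 A and C stood apart from each other, so the count cannot be read against 5%. Over all 5823 genes the share was 8.52%. Gs47900 (0.752) and Gs64970 (0.804) were high in C-28.2 C, with 896 and 3673 CPM. Gs43770 (0.813) was high in C-28.1 A, with 54.4 CPM. Gs65130 (0.833) was low in C-28.2 A, with 25.7 CPM, and its other libraries at 28 °C had 34.4 to 36.1 CPM.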

How the results depend on the processing

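The members numbered 11 raised and 7 lowered. With TMM-scaled library sizes 19 genes were raised, and with DESeq2 size factors 20. At a distance of 1 there were 1 raised and 3 lowered, and at 0.6 there were 27 raised and 34 lowered. A span under 0.5 gave 6 raised and a span under 1 gave 13 lowered. Culture C alone gave 1 raised and 2 lowered, and leaving out culture A gave 1 raised and 4 lowered. Leaving out 1 library in turn gave 3 to 37 raised and 3 to 49 lowered. The other pseudocounts and CPM minimums and the thinned counts moved neither count by over 1.5 times. The distance of Gs44430 was −0.034 in culture C alone and −0.24 without culture A, and −0.24 to 1.16 with 1 library left out. It was −7.7e-05 without H-46 A and −0.24 without C-28.2 A. The direction of the other 17 members was kept under all alternatives tried. The members were chosen for their direction, and every alternative reused H-42 libraries that chose them, so this follows largely from the rule. For Gs43770 the distance in culture C alone was 0.16, on 7 counts in both H-42 C and C-28.1 C. Why membership changed was not tested.

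The 1163 genes called in H-42 against the mean of the other samplings became 341 at an adjusted p below 0.01, 157 with a fold above 2.5 as well, 2863 without culture A and 89 to 2094 with 1 library left out. With culture as a replicate block 1080 genes were called, 929 of them shared, and 13 members. Gs29050 was then called, and Gs64980 and Gs21810 were not. Against C-28.1 the 2625 calls became 1084 to 3160 with 1 library left out, and against C-28.2 the 1848 calls became 680 to 2434. Against H-46 the 16 calls (534 genes at an unadjusted p below 0.05) became 72 with DESeq2 and 0 to 501 with 1 library left out. The 0 came without H-42 B or H-42 C (edgeR; 225 and 241 genes at an unadjusted p below 0.05), and the 501 without H-46 C. Between cultures A and C the 221 calls became 0 to 1492 and the 4 members 0 to 11. The fits without culture A, between cultures and all alternatives to single contrasts were chosen after seeing the data. The median log2 difference of H-42 from the other samplings was 1.04 in the raised and −1.10 in the lowered members with the block, against 1.10 and −1.10 without it. The members were chosen on this difference, so these medians are a description only.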
